A study of Mus musculus with 3 samples.

Results

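Sox5 and Sox6 are the genes of a pair of related transcription factors, and their levels are described here in single neuronal nuclei of tissue dissected as the mouse lateral habenula. They are 2 of the 32285 genes in the deposited table, of which 23009 had at least 1 UMI (unique molecular identifier, the tag that marks 1 captured transcript). They were chosen because earlier results of these data showed them varying in opposite ways between clusters and libraries, so their levels are a description and no test was run on them. There were 603 nuclei, of which 592 were annotated by the authors as neurons. Nuclei came from mothers, virgin females and virgin males, with 3 mice of each group pooled into 1 library, and the labels used here name no strain, age or treatment. Sorting in all 3 groups selected nuclei with KASH-GFP, a green fluorescent protein anchored in the envelope of the nucleus, and carry the label BNST LHb, which names the bed nucleus of the stria terminalis and the lateral habenula. How the label reached the cells, which limits which neurons could be sampled, was not given in the sources used here.

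SoxD proteins (Sox5, Sox6 and Sox13) bind DNA through an HMG box and pair with each other through a coiled coil. They have no activation domain of their own and act by bending DNA and by recruiting partners, among them Sox9 in cartilage and corepressors such as CtBP2. In the developing forebrain Sox5 is known from corticofugal projection neurons and Sox6 from interneurons of the medial ganglionic eminence, and both genes are used by glia.

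The neuronal libraries held 201 nuclei and 2691639 UMIs (mothers), 187 and 2718356 (virgin females), and 204 and 2122919 (virgin males). Median UMIs per neuronal nucleus were 11898, 13181 and 9414, and no cell barcode was shared between libraries. The tissue label was checked against markers: thalamic genes (Lef1, Prkcd, Rora, Ntng1, Gbx2 and Plekhg1) summed to 7089, 8266 and 10641 CPM (UMIs per 1e+06 UMIs) in the authors' clusters 0, 2 and 3, against 2053 and 1454 in clusters 1 and 4. The 6 lateral habenula markers were Gap43, Pcdh10, Htr2c, Gpr151, Pou4f1 and Chrm3. Summed, they stood at 899, 1893, 1116, 1173 and 1760 CPM in clusters 0 to 4. Among them Pou4f1, a transcription factor of habenular neurons, gave 49 UMIs in cluster 1, 6 in cluster 4 and none in clusters 0, 2 and 3. The members differed, since Gpr151 gave 25 UMIs in cluster 0, 26 in cluster 1 and 1 in cluster 4. Gap43 was highest in cluster 0, at 231 CPM against 171 CPM in cluster 1. The clusters are therefore called by their deposited numbers.

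Sox5 (ENSMUSG00000041540) spans chr6:143828425-144781977 on the minus strand of GRCm38, a length of 954 kb, and Sox6 (ENSMUSG00000051910) spans chr7:115470872-116038796 on the minus strand, a length of 568 kb. Long genes receive more UMIs in nuclei where intronic reads are counted, which is not stated for these data, so the level of one gene was not set against the level of the other. A start window, the 250 bases before an annotated transcript start in RefSeq (GRCm38.p6), is shown for each gene because an antisense transcript described further on begins inside the Sox6 window. The Sox5 window is chr6:143947107-143947356 and lies in an intron of Sox5, and the Sox6 window is chr7:115995087-115995336 and lies in an intron of Sox6 and over an exon of Gm45025. Both are read 5′ to 3′ on the minus strand, and capitals mark the core Sox motif ACAAT or its reverse complement ATTGT.
Sox5: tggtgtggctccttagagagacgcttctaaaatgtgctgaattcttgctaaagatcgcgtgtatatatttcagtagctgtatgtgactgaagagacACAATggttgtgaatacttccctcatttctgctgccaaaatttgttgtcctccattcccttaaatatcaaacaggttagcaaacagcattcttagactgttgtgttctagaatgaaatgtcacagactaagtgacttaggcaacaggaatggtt
Sox6: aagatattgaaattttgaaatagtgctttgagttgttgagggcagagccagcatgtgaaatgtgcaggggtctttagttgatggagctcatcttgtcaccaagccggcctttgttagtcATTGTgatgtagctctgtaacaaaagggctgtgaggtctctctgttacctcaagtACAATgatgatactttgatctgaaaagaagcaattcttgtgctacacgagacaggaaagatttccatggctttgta
The motif occurred 1 time in the Sox5 window and on each strand of the Sox6 window. It was present in 3 of the 6 start windows listed for Sox6, and 27.7% of all 32851 start windows of this length held it. A match is a match of letters only.

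Sox5 was found in all 5 clusters and was concentrated in clusters 3 and 2. Of its 1419 UMIs in neuronal nuclei, 46.4% lay in cluster 3 and 35.6% in cluster 2, which held 15.4% and 16.4% of the nuclei. Its level was 446 CPM [412, 481] in cluster 3 and 371 CPM [339, 404] in cluster 2, where brackets are exact Poisson 95% intervals that cover counting error only. Clusters 1 and 4 stood at 92.4 CPM [78.7, 108] and 91.4 CPM [71.4, 115], and cluster 0 at 10.6 CPM [6.74, 15.9]. Clusters 1 and 4 could not be told apart at this depth.

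The order was much the same in each library. In mothers, Sox5 stood at 13.6, 113, 427, 442 and 81.7 CPM in clusters 0 to 4. In virgin females the same clusters gave 11.4, 71.9, 225, 400 and 120 CPM. Virgin males gave 6.38, 110, 483, 477 and 82.6 CPM. Cluster 0 was lowest and clusters 2 and 3 were the highest pair in all 3 libraries. The intervals of clusters 2 and 3 overlapped in mothers and in virgin males, and in virgin females cluster 2 lay below cluster 3.

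**Figure D1:**
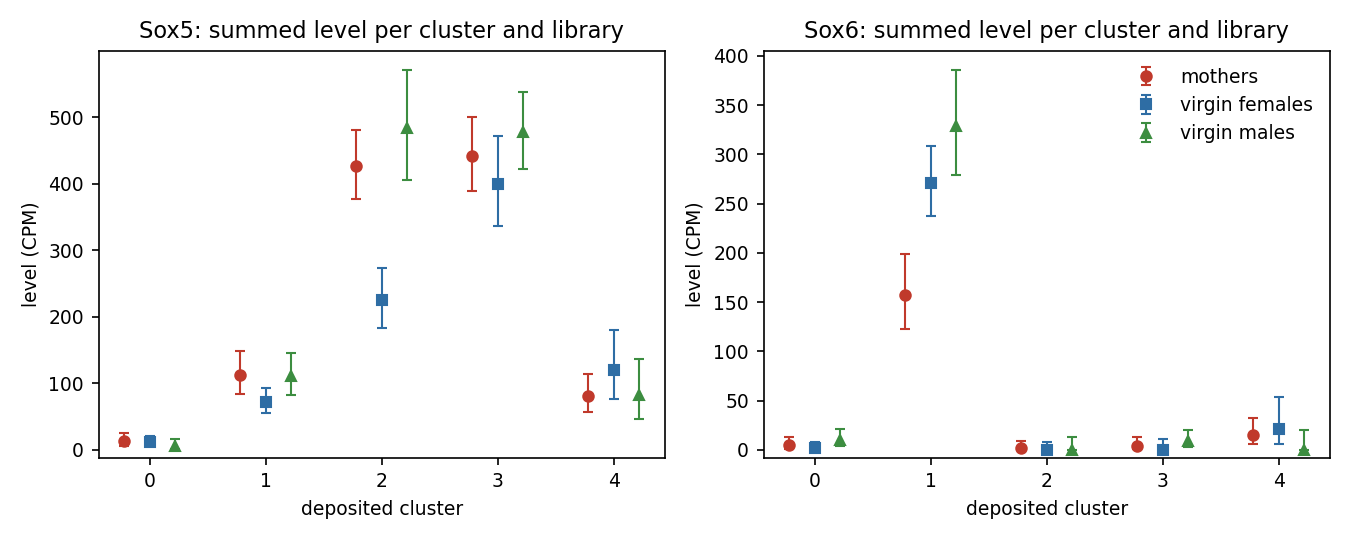
Level of Sox5 (left) and Sox6 (right) in CPM (vertical axis) in each deposited cluster (horizontal axis), with 1 point per library and exact Poisson 95% intervals as bars. Sox5 is high in clusters 2 and 3, where virgin females in cluster 2 stand apart at 225 CPM, and Sox6 is high in cluster 1, where mothers are lowest at 158 CPM.

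A Sox5 UMI was seen in 259 of 592 neuronal nuclei (43.8%). By cluster the shares of nuclei were 9.88% (17 of 172), 35.0% (55 of 157), 72.2% (70 of 97), 85.7% (78 of 91) and 52.0% (39 of 75) in clusters 0 to 4, at median depths of 11465, 9894, 12639, 15007 and 9431 UMIs. With every nucleus thinned to 4000 UMIs, and 33 shallower nuclei left out, the shares were 4.07%, 23.2%, 57.6%, 68.7% and 28.7%, with the clusters in the same order. Of 145 nuclei with 3 or more Sox5 UMIs, 117 lay in clusters 2 and 3 and 18 in cluster 1. The 10 nuclei richest in Sox5 held 17.5% of its UMIs, and the highest count in a nucleus was 43.

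Sox6 was almost restricted to cluster 1. That cluster held 452 of the 481 Sox6 UMIs of neuronal nuclei (94.0%), at 258 CPM [235, 283]. Levels elsewhere were 12.9 CPM [6.18, 23.7] in cluster 4, 5.08 CPM [2.54, 9.10] in cluster 0, 4.74 CPM [1.91, 9.77] in cluster 3 and 0.734 CPM [0.0186, 4.09] in cluster 2. Cluster 1 stood apart from each of the others, and among those the intervals of clusters 4 and 2 did not overlap.

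By library, Sox6 in cluster 1 stood at 158 CPM (mothers), 271 CPM (virgin females) and 329 CPM (virgin males). No cluster outside cluster 1 exceeded 20.9 CPM in any library, a value that came from 4 UMIs in cluster 4 of virgin females. Sox6 gave no UMI in clusters 2 and 3 of virgin females or in clusters 2 and 4 of virgin males. The exact Poisson upper limits of these counts of 0 were 8.05, 10.6, 13.1 and 20.3 CPM. A floor of 3 UMIs lay at 6.55, 8.63, 10.7 and 16.5 CPM. The highest value outside cluster 1 was thus far below the lowest inside it.

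Nuclei with a Sox6 UMI numbered 88 of 592 (14.9%), 64 of them among the 157 nuclei of cluster 1 (40.8%, median depth 9894). In clusters 0, 2, 3 and 4 together the share was 5.52% (24 of 435, median depth 11898), ranging from 1.03% in cluster 2 to 9.33% in cluster 4. No class known to lack either gene was large enough for a background share, since the 2 oligodendrocyte nuclei held no UMI of Sox5 or Sox6. All 47 nuclei with 3 or more Sox6 UMIs were in cluster 1, and no nucleus outside it held more than 2. The 10 nuclei richest in Sox6 held 36.0% of its UMIs, and the highest count was 27.

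**Figure D2:**
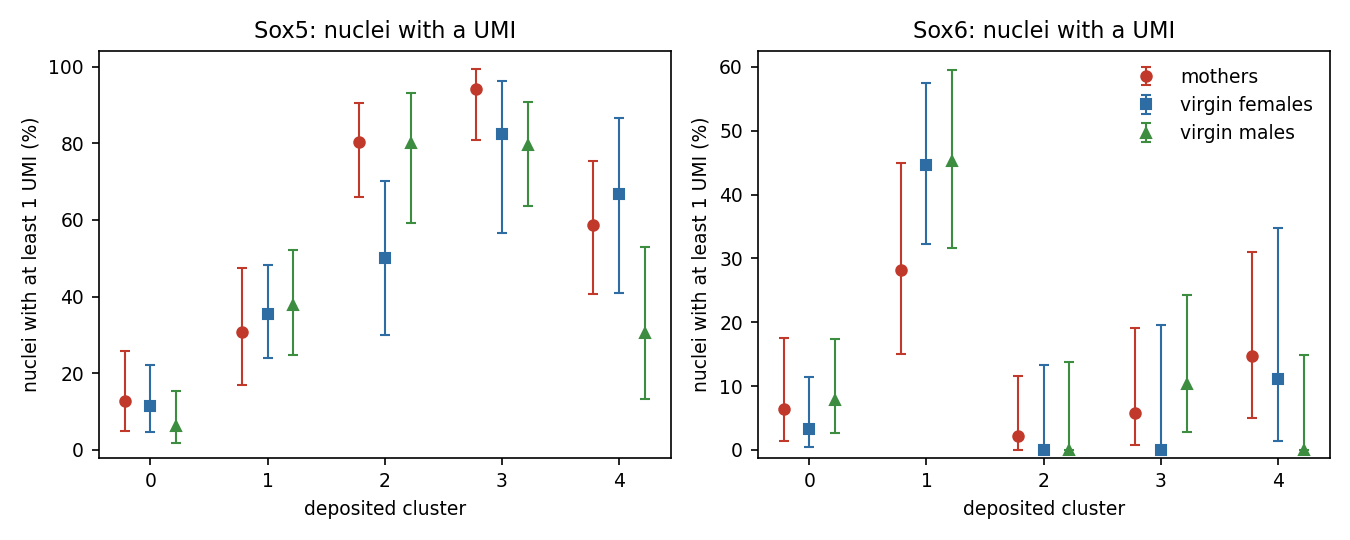
Share of nuclei with at least 1 UMI of Sox5 (left) or Sox6 (right), in percent (vertical axis), by deposited cluster (horizontal axis) and library, with exact Clopper-Pearson 95% intervals as bars. Sox5 reaches 94.3% of nuclei in cluster 3 of mothers, and Sox6 reaches 45.3% in cluster 1 of virgin males and at most 14.7% outside cluster 1.

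Cluster 1 was the one cluster where both genes had many positive nuclei, and there they were mostly in different nuclei. Of its 157 nuclei, 55 had Sox6 without Sox5, 46 had Sox5 without Sox6, 9 had both and 47 had neither. The product of the separate shares would have placed both in 22.4 nuclei. Since exclusion was part of the reason these genes were chosen, these counts are descriptive.

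Sox5 was seen in 9 of 64 cluster 1 nuclei with Sox6 (14.1% [6.64, 25.0], exact Clopper-Pearson 95% interval) and in 46 of 93 without it (49.5% [38.9, 60.03]). Depth ran the other way, with medians of 13150.5 UMIs in the Sox6-positive nuclei and 8006 in the rest. The level of Sox5 was 36.5 CPM with Sox6 and 156 CPM without it. In nuclei at or above the median depth of cluster 1, an alternative added after the data were seen, the counts were 5 of 41 against 24 of 38. After thinning to 4000 UMIs, with 20 nuclei left out, the expected shares were 5.65% and 33.4%.

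The same direction was seen in each library. In mothers, Sox5 was found in 1 of 11 nuclei with Sox6 and 11 of 28 without it. Virgin females gave 3 of 29 and 20 of 36, and virgin males gave 5 of 24 and 15 of 29. The intervals were separate in virgin females (2.19% to 27.4% against 38.1% to 72.1%) and overlapped in mothers and in virgin males, which held fewer Sox6-positive nuclei.

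Summed over the libraries, the level of Sox5 was lowest in the nuclei richest in Sox6, but the steps between rest on few nuclei. It was 156 CPM [130, 185] in the 93 cluster 1 nuclei with no Sox6, 120 CPM [77.7, 177] in the 17 with 1 to 2 UMIs, 40.2 CPM [13.0, 93.7] in the 12 with 3 to 5, and 6.68 CPM [1.82, 17.1] in the 35 with 6 or more. A single nucleus of virgin males, with 21 Sox5 UMIs and 1 Sox6 UMI at a depth of 25892, carried most of the second step. The other 16 nuclei of that step gave 21.9 CPM [5.97, 56.1], below the third step, and without virgin males the step stood at 23.6 CPM. In the third step 4 of the 5 Sox5 UMIs came from 1 nucleus of mothers, and without mothers it stood at 9.37 CPM (settings added after the data were seen). By library the 4 steps were, in CPM, 165, 0, 225 and 0 (mothers), 152, 37.2, 0 and 5.86 (virgin females), and 149, 272, 20.3 and 12.7 (virgin males). In each library the last step was thus below the first, and no order of the middle steps was shared. In the 35 nuclei richest in Sox6, the deepest step with a median of 16776 UMIs, 4 nuclei had Sox5 and each had 1 UMI of it.

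**Figure D3:**
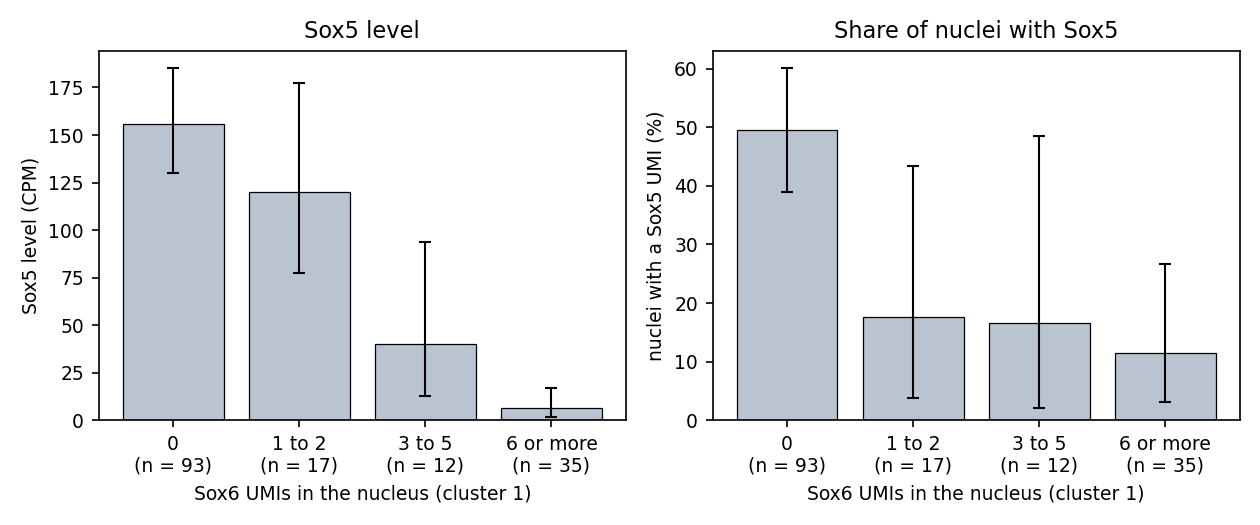
Sox5 level in CPM (left, exact Poisson 95% intervals) and share of nuclei with a Sox5 UMI in percent (right, exact Clopper-Pearson 95% intervals) in cluster 1, all libraries together, by the number of Sox6 UMIs in the nucleus (horizontal axis, with the number of nuclei). The first bars stand at 156 CPM and 49.5% and the last at 6.68 CPM and 11.4%. On the left the second bar rests largely on 1 nucleus with 21 Sox5 UMIs and the third on 1 with 4.

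The same nuclei read from the side of Sox5 gave summed Sox6 levels that fell. Sox6 stood at 349 CPM in cluster 1 nuclei with no Sox5, at 140 CPM in the 37 with 1 to 2 Sox5 UMIs and at 18.6 CPM in the 18 with 3 or more. The middle step rests on 6 nuclei with Sox6. By library the steps were, in CPM, 220, 0 and 34.0 (mothers), 386, 95.1 and 8.90 (virgin females), and 414, 295 and 14.7 (virgin males). The last step was below the first in each library, but mothers had no ordered fall. At a threshold of 2 UMIs for each gene, 1 nucleus of 56 with Sox6 also had Sox5, against 27 of 101 without it. The 9 double-positive nuclei held at most 3 UMIs of whichever gene was the scarcer. Between the nuclei with Sox6 alone and those with Sox5 alone, which differ in these genes by construction, 0.722% of 4988 genes with at least 50 UMIs lay at least 3-fold higher with Sox6 alone and 1.22% with Sox5 alone.

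**Figure D4:**
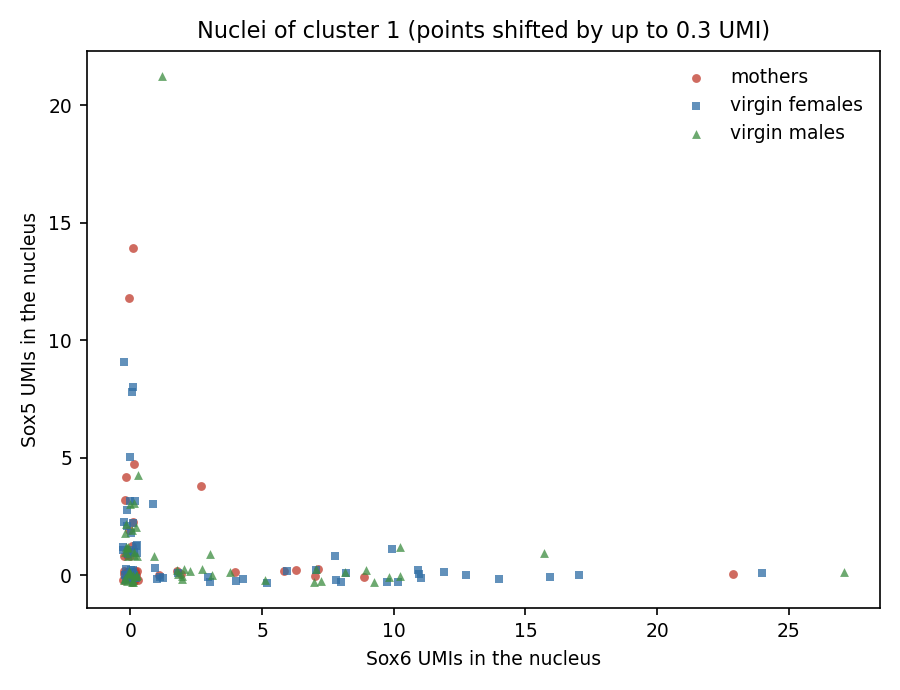
Sox5 UMIs (vertical axis) against Sox6 UMIs (horizontal axis) in each of the 157 nuclei of cluster 1, with 1 symbol per library and points shifted by up to 0.3 UMI so that overlapping nuclei can be seen. Points lie along the axes, and no nucleus with 6 or more Sox6 UMIs has more than 1 Sox5 UMI.

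Outside cluster 1 no such pattern was seen, although Sox6 was too scarce there for a firm statement. Sox5 was found in 12 of 24 nuclei with a Sox6 UMI (50% [29.1, 70.9]) and in 192 of 411 without one (46.7% [41.8, 51.7]), and the product of the shares gives 11.3 double-positive nuclei. Of the 12, 9 held a single Sox6 UMI, and their median depth was 17574.5 UMIs. In cluster 3 all 6 nuclei with Sox6 also had Sox5, at a median depth of 23168 UMIs against 14170 in the other nuclei of that cluster.

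Both genes differed between the libraries when neuronal nuclei were summed. Sox5 stood at 224 CPM (mothers), 124 CPM (virgin females) and 226 CPM (virgin males). By these sums virgin females were low and the other libraries lay within counting error of each other. Nuclei with a Sox5 UMI made up 53.7% [46.6, 60.8] of mothers, 36.9% [30.0, 44.2] of virgin females and 40.2% [33.4, 47.3] of virgin males (exact Clopper-Pearson intervals). The interval of virgin males overlapped the others, while mothers and virgin females were apart. After thinning, the shares were 40.1%, 23.6% and 30.0% in the same order of libraries. The place of virgin males thus differed between sums and shares. Sox6 stood at 30.5, 86.8 and 76.8 CPM in the same order, so mothers were low. With 1 library of pooled mice per group, the group, the mice and the library preparation cannot be told apart. In a sum over nuclei, fewer cells of a type and less RNA per cell cannot be told apart either.

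The ratio of mothers to virgin females was 1.82 [1.59, 2.08] for Sox5 and 0.351 [0.270, 0.453] for Sox6 (exact conditional binomial 95% intervals). Thus 1 of the 2 genes lay at least 1.5-fold higher in mothers, as did 3.75% of the 10388 genes that had 50 or more UMIs in the pair, and 1 of 2 lay at least 1.5-fold lower, as did 3.47%. Virgin males over virgin females gave 1.83 [1.58, 2.10] for Sox5, past the fold that 2.96% of 10024 genes reached upward, and 0.884 [0.720, 1.08] for Sox6. Mothers over virgin males gave 0.995 [0.881, 1.12] for Sox5, and 0.397 [0.301, 0.520] for Sox6, beyond the fold that 2.94% of 9990 genes reached downward. The genes were picked from these contrasts, so nothing is read from the shares, and the 3 ratios share their libraries.

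The libraries differed in their mix of clusters, and this moved the ratios. Cluster 1, the source of nearly all Sox6, made up 19.4% of the neuronal nuclei of mothers, 34.8% of those of virgin females and 26.0% of those of virgin males. The clusters were then given the same weights in each library, namely their shares of all neuronal nuclei. This gave Sox6 ratios of 0.609 for mothers over virgin females and 0.501 for mothers over virgin males. Virgin males over virgin females gave 1.22, now above 1. For Sox5 the same weighting gave 1.34, 0.937 and 1.43 for those pairs. Clusters 2 and 3, where Sox5 was high, made up 22.9% and 17.4% of the nuclei of mothers, 13.9% and 9.09% for virgin females, and 12.3% and 19.1% for virgin males.

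Within cluster 1, Sox6 stayed lower in mothers. Its ratio was 0.581 [0.438, 0.763] to virgin females, a pair in which 11.8% of 8844 genes with at least 20 UMIs lay at least 1.5-fold lower. The ratio to virgin males was 0.479 [0.355, 0.640], where 11.5% of 7436 genes lay at least 1.5-fold lower. Virgin males over virgin females gave 1.21 [0.983, 1.5]. The nuclei with Sox6 numbered 11 of 39 (mothers), 29 of 65 (virgin females) and 24 of 53 (virgin males), and the intervals of these shares overlapped. In clusters 0, 2, 3 and 4 summed, Sox6 was not lower in mothers than in virgin females, with 12 UMIs against 6 and a ratio of 1.66 [0.578, 5.40]. The ratio to the 11 UMIs of virgin males was 0.806 [0.326, 2.02].

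Within clusters, the intervals of both ratios to virgin females lay above 1 for Sox5 in clusters 1 and 2 and spanned 1 in clusters 0, 3 and 4. In cluster 2 the ratio was 1.90 [1.51, 2.41] for mothers over virgin females, where 12.8% of 7547 genes lay at least 1.5-fold higher, and 2.15 [1.65, 2.80] for virgin males over virgin females, where 11% of 5880 genes did. A Sox5 UMI was found in 13 of 26 nuclei of virgin females, 37 of 46 of mothers and 20 of 25 of virgin males, although virgin females were deepest in that cluster with a median of 17512.5 UMIs against 12677.5 and 10672. In cluster 3 the same ratios were 1.10 [0.894, 1.37] and 1.19 [0.97, 1.48]. In cluster 1 they were 1.57 [1.06, 2.31], beside 10.7% of 8844 genes, and 1.54 [1.04, 2.27], beside 9.4% of 8880 genes. There 1 nucleus held 21 of the 51 Sox5 UMIs of virgin males, and 1 held 14 of the 50 of mothers. Shares of nuclei with Sox5 in cluster 1 were 30.8% (mothers), 35.4% (virgin females) and 37.7% (virgin males), with overlapping intervals. In cluster 4 virgin females were instead the highest, at ratios of 0.678 [0.386, 1.21] and 0.686 [0.333, 1.37], from 33, 23 and 15 Sox5 UMIs in mothers, virgin females and virgin males. Cluster 0, with 9, 10 and 4 UMIs, gave 1.18 [0.426, 3.24] and 0.558 [0.128, 1.93]. The difference of these ratios between clusters was not tested.

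**Figure D5:**
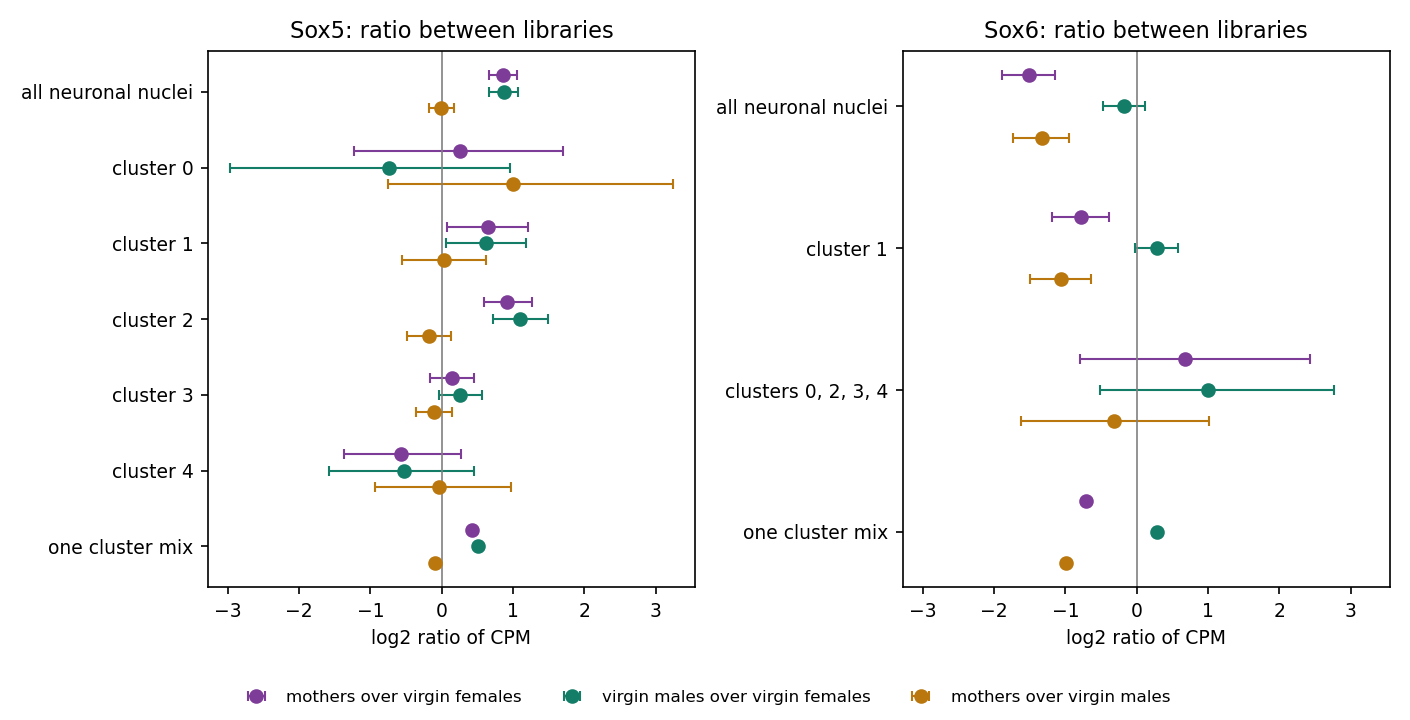
Log2 ratio of CPM between libraries (horizontal axis) for Sox5 (left) and Sox6 (right), over all neuronal nuclei, within clusters and with the same cluster weights in each library. Bars are exact conditional binomial 95% intervals, which the weighted values lack. Sox6 is low in mothers over all nuclei, in cluster 1 and with the same cluster weights. It is not low in the other clusters summed, where mothers over virgin females is 1.66 with an interval that spans 1. Sox5 of virgin females is lowest relative to the others in cluster 2 and is the highest of the 3 in cluster 4.

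In 1 of the authors' subtype schemes, both main labels of cluster 1 held both genes, at higher summed levels under LHb2. Cluster 1 carried the label LHb2 on 86 nuclei and LHb4 on 71, with Sox6 at 286 CPM [255, 320] and 213 CPM [180, 251] and in 43.0% and 38.0% of them. Sox5 stood at 109 CPM [90.1, 131] and 66.2 CPM [48.3, 88.6] in the same nuclei, in 34.9% and 35.2%. The intervals of the levels were thus apart, for Sox5 only narrowly (90.1 against 88.6), while the shares of nuclei overlapped. In cluster 1 a single nucleus held 21 of the 162 Sox5 UMIs. The levels under the labels were not taken without it or by library. Among nuclei with Sox5 alone the labels split in opposite ways between libraries, with LHb2 on 7 of 11 in mothers and 16 of 20 in virgin females and LHb4 on 13 of 15 in virgin males. Nuclei with Sox6 alone carried LHb2 on 6 of 10, 16 of 26 and 10 of 19 in the same order of libraries. The authors' other scheme put lhb_1 on 10 of 10, 26 of 26 and 18 of 19 of these. With Sox5 alone it put lhb_1 on 9 of 11, 19 of 20 and 11 of 15. A medial habenula label was on 1 nucleus with Sox5 alone in each library and on 1 with both genes in mothers. No other nucleus of cluster 1 carried it. In cluster 2, Sox5 was higher under LHb2 (591 CPM [502, 691], 22 nuclei) than under LHb1 (318 CPM [286, 354], 74 nuclei).

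Of 8 annotated genes that overlap Sox5 or Sox6, 4 had more than 1 UMI in neuronal nuclei. Gm45025, which runs on the plus strand at chr7:115995274-116014145 within Sox6, gave 60 UMIs, all of them in cluster 1. Sox6 was seen in 34 of the 37 nuclei with Gm45025 (91.9%), against 30 of the other 120 nuclei of cluster 1 (25.0%). Their median depths were 13446 and 8661 UMIs. The first base of Gm45025 lies inside the Sox6 start window printed above. Sox5os4, at chr6:144720911-144759883 on the plus strand within Sox5, gave 185 UMIs, at 0.924, 13.1, 38.9, 66.4 and 11.6 CPM in clusters 0 to 4, the same order of clusters as Sox5. Over all clusters, Sox5 was seen in 80 of 87 nuclei with Sox5os4 (92.0%) and in 179 of the other 505 (35.4%). Their median depths were 14763 and 10975 UMIs. In clusters 2 and 3 the gap was smaller, at 62 of 64 (96.9%) against 86 of 124 (69.4%), with median depths of 17062.5 and 12346 UMIs. In cluster 1 the counts were 11 of 14 and 44 of 143. Mothers over virgin males was 1.58 [1.10, 2.30] for Sox5os4, against 0.995 [0.881, 1.12] for Sox5. The others were scarcer. Sox5os2, with 46 UMIs, was highest in cluster 3 at 17.6 CPM and stood at 9.01 CPM in cluster 4 and 7.34 CPM in cluster 2. Sox5os3 had 29 UMIs, 15 of them in cluster 3, 10 in cluster 2 and 0 in cluster 4. Sox6os gave 1 UMI, and Sox5os1, Sox5os5 and Sox5it gave 0. The strand used in counting is not stated, so these UMIs and those of the host genes cannot be told apart.

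The third SoxD gene, Sox13 (chr1:133382303-133424377), was scarce, with 28 UMIs in 24 neuronal nuclei and at most 11.6 CPM in any cluster (cluster 4). Of 16 other Sox genes, 10 had a UMI in neuronal nuclei, led by Sox11 with 231, Sox4 with 90 and Sox12 with 79, and Sox9, the SoxD partner of cartilage, had 6. Between mothers and virgin females 0 of the 5 with at least 10 UMIs lay 1.5-fold higher and 1 lower (Sox1, 3 against 11 UMIs), with a median log2 ratio of 0.01 beside 0.00 over all 14947 genes at that minimum, of which 8.62% lay higher and 8.52% lower.

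Corepressors and histone deacetylases, the partners through which SoxD proteins can silence genes, were present with all 8 listed members. Summed, they stood at 429 CPM in cluster 1 and 143 CPM in cluster 3. Ctbp2, a corepressor known to bind Sox6, stood at 42.2 and 39.9 CPM in clusters 1 and 4 and at 16.2, 10.3 and 8.80 CPM in clusters 0, 2 and 3. Tle4, a Groucho-family corepressor, stood at 184 CPM in cluster 1. Between mothers and virgin females 0 of the 8 lay 1.5-fold higher and 0 lower (median log2 ratio −0.10), beside the 8.62% and 8.52% of all genes given above. Between virgin males and virgin females Tle3 lay higher and Hdac1 lower, against 8.64% and 8.88% of 14662 genes. Between mothers and virgin males Tle1 lay higher (1.58) and Tle3 lower (0.62), against 8.86% and 8.27% of 14699 genes.

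Genes tied to SoxD factors in other tissues were present in part. In mothers and virgin females together, 4 of 6 cartilage matrix genes and 3 of 6 corticofugal neuron genes had at least 10 UMIs. So did 5 of 9 genes of interneurons from the medial ganglionic eminence. Of all 32285 genes, 14947 had as many, so nothing is read from these counts. The cartilage genes gave at most 42 UMIs each (Col11a2). Of the corticofugal genes, Fezf2 gave no UMI, Tbr1 gave 5 and Crym 6. Tle4 gave 555 UMIs, 322 of them in cluster 1, and Bcl11b, a zinc finger transcription factor, gave 84, of which 45 lay in cluster 0. Foxp2, a transcription factor that thalamic neurons also use, stood at 727 CPM in cluster 0, where Sox5 was lowest, and at 409 and 468 CPM in clusters 2 and 3. Of the interneuron genes, the defining factors Lhx6 and Nkx2-1 gave no UMI. Pvalb and Sst, a calcium-binding protein and a neuropeptide that mark interneuron classes, lay mostly in cluster 1, with 47 of 54 and 25 of 26 UMIs. Of the Sst UMIs, 21 came from mothers. Within cluster 1, Sst did not go with Sox6, with 21 UMIs in 3 nuclei that had neither Sox5 nor Sox6 and 3 with Sox6 alone. Pvalb gave 31 UMIs in the nuclei with Sox6 alone and 7 in those with neither. Satb1, a chromatin organiser, gave 169 UMIs over all 5 clusters, at 9.01 to 27.9 CPM. Erbb4, a neuregulin receptor, stood at 777 and 1730 CPM in clusters 1 and 4 and at 24.0 CPM or less elsewhere.

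Oligodendrocyte precursors and astrocytes also use Sox6, so their markers were set beside it. In neuronal nuclei the 6 precursor markers without Sox genes summed to 2.60, 7.36 and 10.4 CPM in mothers, virgin females and virgin males, with Cspg4 and Olig2 at 0, and 41 of their 49 UMIs were Vcan, a proteoglycan. These markers lay in cluster 1 like Sox6, at 21.7 CPM [15.3, 29.7] with 38 of the 49 UMIs and 34 of the 41 of Vcan, against 1.47 to 2.58 CPM in the other clusters. Within cluster 1 they gave 3, 17 and 18 UMIs in mothers, virgin females and virgin males, and their part in the Sox6 levels was not tested. The 5 astrocyte markers summed to 4.83, 4.41 and 8.01 CPM, with Gfap at 0, and by cluster to 7.98 CPM in cluster 1, 14.2 CPM in cluster 4 and 0.734 to 7.45 CPM in the others, with 11 of the 17 UMIs of Aqp4, a water channel, in cluster 1. A broader filter left out neuronal nuclei with 5 or more UMIs over all non-neuronal markers. Those were 45 of 201 (mothers), 34 of 187 (virgin females) and 28 of 204 (virgin males). Without them the log2 ratio of Sox6 between mothers and virgin females was −1.40, against −1.51 with them. The log2 ratio of Sox6 in cluster 1 to the other clusters was 5.46, against 5.66. In neuronal nuclei microglial markers gave 895 UMIs and ependymal or choroid markers 969, against 49 for precursors and 42 for astrocytes. The filter could thus keep nuclei with a few precursor or astrocyte UMIs, and it does not isolate their part.

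The genes most like Sox6 across the 15 sums of cluster and library, by Pearson r of log2(CPM + 10) among 4633 genes with at least 300 UMIs, were Man1a, a Golgi mannosidase (r = 0.979), Prkcq, a protein kinase C (0.95), Myo16, an unconventional myosin (0.947), Spink13, a protease inhibitor (0.947), and Mcc (0.936). Those most like Sox5 were Il1rapl1, a synaptic adhesion molecule (0.947), Sema6a, a guidance cue (0.946), Slc24a3, a cation exchanger (0.941), Tmem108 (0.920) and Adam11 (0.911). Sox5 against Sox6 gave −0.16. The 15 points share libraries and clusters, so these values are descriptive. Man1a followed Sox6 down to its low level in cluster 2, at 335 CPM in cluster 1 and 1.47 CPM in cluster 2, and Sema6a ran from 35.1 CPM in cluster 0 to 269.6 CPM in cluster 3.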

How the data were processed

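Nuclei of 3 pooled mice per group were sorted and sequenced with the 10x Chromium 3′ v3.1 assay, per the labels' protocols. The authors deposited raw UMI counts per gene and nucleus, with a table of each nucleus' total counts, percent of mitochondrial UMIs, class, cluster and subtype labels. Per the submitters' processing notes, Cell Ranger 5.0.1 was used with GRCm38 (mm10). Intron counting, strand, filters and doublet treatment were not given in the sources used here. The tables were joined by each nucleus' total UMIs and genes with a UMI, a pair that was unique, and the mitochondrial percent recomputed from the counts matched that deposited by the authors.

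UMIs of neuronal nuclei were summed by library and cluster and scaled to CPM (Python 3.11.15, numpy 2.4.6, pandas 2.3.3, scipy 1.17.1). Nuclei held 823 to 36574 UMIs. The floor for a count of 0 was 3 UMIs. Intervals are 95% and cover counting error only. With 1 library per group no test was made, and no doublet caller was run. Background shares are of genes 1.5-fold apart, with at least 50 UMIs in the pair, 20 within clusters and 10 for gene lists. The ratio and interval code was tested on simulated data. Named genes were Sox5, Sox6, the 5 most like each and members of lists by tissue role. Members and lists were chosen with earlier results of these data known. GENCODE M21 gave the gene positions. Alternatives comprised one cluster mix, equal weight per nucleus, thinning, and leaving out libraries or nuclei. A comparison of the SoxD proteins was not run.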

Additional observations from a re-analysis of the deposited data

Results flagged for a closer look

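Signal was also found outside the neuronal nuclei. In the 8 nuclei annotated as astrocytes or ependymal cells, all from virgin females, Sox6 stood at 1275 CPM [1023, 1571] with a UMI in 8 of 8, and Sox5 at 304 CPM [188, 465] with a UMI in 5 of 8. A single ependymal nucleus with 31276 UMIs held 51 of the 88 Sox6 UMIs and 13 of the 21 Sox5 UMIs. The 1 polydendrocyte nucleus held 2 Sox6 UMIs and no Sox5. These nuclei entered none of the comparisons, and 1 library supplied nearly all of them.

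A second signal lay in the antisense genes of both loci, which gave 185 UMIs for Sox5os4 and 60 UMIs for Gm45025 in neuronal nuclei, the first highest in clusters 2 and 3 and the second in cluster 1 alone.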

How the results depend on the processing

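Of 78 alternative values for 11 results, 61 stayed within the counting interval, 17 moved beyond it and 0 of the log2 ratios with an interval clear of 0 changed sign. With one cluster mix, log2 ratios were 0.42 (mothers over virgin females) and 0.51 (virgin males over virgin females) for Sox5, against 0.86 and 0.87, and −0.72 and 0.28 for Sox6, against −1.51 and −0.18. The Sox5 ratio of virgin males to virgin females became 0.66 with equal weight per nucleus, 0.63 after thinning and 0.58 without the 5% richest nuclei. That of mothers to virgin males became 0.27, 0.30 and 0.28 in the same order, against −0.01. Sox5 in cluster 1 over the other clusters was −1.23, and −0.92 with equal weight and −0.997 after thinning, with −1.22 to −1.17 when each library was left out. Sox6 there was 5.66, with 5.35 to 5.88. The gap in Sox5 share between cluster 1 nuclei without and with Sox6 was 35.4 points, 28.5 to 38.8 when each library was left out, and 51.0 in deep nuclei. Sox5 in cluster 1 nuclei with 1 to 2 Sox6 UMIs was 120 CPM, 23.6 to 172 CPM when each library was left out and 21.9 CPM without its richest nucleus, and with 3 to 5 it was 40.2 CPM, 9.37 to 74.6 CPM and 8.57 CPM. Beyond the cluster mix, whose construction removes differences in cluster shares, the cause was not tested. No paired analysis was possible because each group had 1 library. Depth limits all statements on Sox6 outside cluster 1.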

Other observations

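Cluster 1 nuclei with Sox6 alone and with Sox5 alone also differed in other genes. The 5 GABAergic markers (Gad1, Gad2, Slc32a1, Dlx1 and Dlx6os1) gave 0 UMIs in the 55 nuclei with Sox6 alone, and none in any of the 3 libraries. The exact Poisson upper limit of that count was 4.58 CPM, and the floor of 3 UMIs lay at 3.72 CPM. The 9 nuclei with both genes gave 127 CPM [72.7, 206], 16 UMIs that all came from virgin males. Gad1, Gad2 and Slc32a1 were each seen in 1 of those 9, so at least 1 nucleus with Sox6 held these markers. The GABAergic markers gave 76.3 CPM in the 46 nuclei with Sox5 alone. Most of it was Gad2, an enzyme of GABA synthesis, with 24 UMIs in 8 nuclei, and 29 of the 37 UMIs came from virgin females. The 47 nuclei with neither gene gave 139 CPM, none of it from virgin males, and were the shallowest at a median of 6638 UMIs. Slc17a6, a vesicular glutamate transporter that was on none of the lists and was looked up after the other values were seen, stood at 341 CPM with Sox6 alone and 246 CPM with Sox5 alone, and was seen in 49 of 55 and 33 of 46 nuclei.

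The summed level of thalamic markers was higher with Sox5 alone, and habenular markers ran opposite ways between libraries. The 6 thalamic markers summed to 1852 CPM [1759, 1949] with Sox6 alone and 2744 CPM [2599, 2896] with Sox5 alone. Most of it was Rora (1112 and 1469 CPM) and Ntng1 (701 and 1118 CPM). The share of nuclei with Ntng1 ran the other way, at 54 of 55 and 31 of 46, with median depths of 13446 and 11011.5 UMIs. By library the sums in CPM were 1831 and 3937 (mothers), 1836 and 2369 (virgin females) and 1898 and 2140 (virgin males), so the direction was shared and the gap was widest in mothers. The 6 lateral habenula markers summed to 1744 and 1927 CPM over the libraries, which hides sums of 1985 and 792 (mothers), 1606 and 1597 (virgin females), and 1840 and 4137 (virgin males). Within the habenular list Pcdh10, a protocadherin, stood at 418 and 169 CPM while Htr2c, a serotonin receptor, stood at 319 and 986 CPM. Pou4f1 stood at 27.3 and 31.0 CPM. Prkcq, a gene that leads cluster 1, stood at 418 CPM with Sox6 alone, 120 CPM with Sox5 alone and 59.2 CPM with neither.

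Further genes were named after their values were seen, as the 6 with the largest difference each way among genes with at least 50 UMIs, a UMI in at least 20 nuclei of the higher class and the same sign in 3 libraries. Higher with Sox6 alone were Gpr83, a G protein-coupled receptor (10.6-fold [3.45, 53.2]), Gab1, a docking protein (10.0-fold [3.24, 50.3]), Kcns3, a potassium channel subunit (7.56-fold), Col25a1, a membrane collagen (7.35-fold [5.83, 9.38]), and Spink13 (6.21-fold). Ube2cbp was 14.0-fold higher and 3.07-fold without its richest nucleus, and was level in virgin males (log2 ratio 0.01).

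Higher with Sox5 alone were Alcam, an adhesion molecule (15.7-fold [8.43, 32.5]), Megf11 (14.1-fold), Nell1, a secreted protein (10.1-fold), Pdzd2 (7.76-fold), Trpm3, a cation channel (6.90-fold [5.83, 8.20]), and Cacna2d3, a calcium channel subunit (6.29-fold). Megf11 was close to level in virgin males, with a log2 ratio of −0.24 for Sox6 alone over Sox5 alone. These folds compare nuclei of the same libraries, chosen by what is measured in them, and are descriptive.

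In virgin males, 5 nuclei of cluster 1 carried 10 or more Ttr UMIs, from the choroid plexus gene for transthyretin. They held 1 Sox6 UMI and 4 Sox5 UMIs in all. Over cluster 1, Ttr stood at 3.72 CPM with Sox6 alone and 992 CPM with Sox5 alone, where 2 of 46 nuclei had a UMI of it. With neither gene it stood at 604 CPM, from 2 of 47 nuclei, and with both at 294 CPM, from 2 of 9. Each of these levels thus rests on few nuclei.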
